A study of Mus musculus with 6 samples.

Results

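miR-26a-5p, miR-26b-5p and miR-22-3p are 3 mature microRNAs (miRNAs, short RNAs that direct the silencing of messenger RNAs they pair with) with reported roles in the differentiation of osteoblasts, the cells that lay down bone. They were chosen by name for those reported roles, with earlier results of these data known. All 3 were found among the 1927 rows of the deposited count table. The libraries were of small RNA from extracellular vesicles (EVs), membrane-enclosed particles shed by cells, of untreated male Swiss-CD1 mice aged 8 weeks. Tibias and femurs were cleaned of soft tissue, cut at the ends, spun to remove marrow and crushed. Large EVs (lEVs, 3 libraries) were pelleted at 10000 g, and small EVs (sEVs, 3 libraries) were collected at 100000 g over a 30% sucrose cushion. Nothing in the labels ties a replicate to an animal or a preparation, so the p-values below measure the spread between these libraries, which may be technical. Whether a miRNA differs because fewer vesicles carry it or because each vesicle carries fewer copies, and whether cell numbers or RNA per cell differ at the source, cannot be told apart in such bulk libraries.

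As background, a miRNA recognises its targets mainly through the seed, a short stretch near its 5′ end, so miRNAs with one seed share predicted targets and are treated as a family. The miR-26 family is made from introns of genes of the Ctdsp phosphatases, and miR-26a has been reported to promote or to restrain osteoblast differentiation depending on the source of the cells. miR-22-3p comes from the exon of a noncoding host gene and has been reported to favour osteogenic over adipogenic differentiation of stromal cells, with the deacetylase Hdac6 among its reported targets.

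The 3 mature sequences are shown because they set which members form a family and how reads of the miR-26 paralogs can be told apart. They are from RefSeq (GRCm38.p6, 3 of 3 names matched), 5′ to 3′, with the seed, bases 2 to 8, in capitals.
miR-26a-5p: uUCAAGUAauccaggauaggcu
miR-26b-5p: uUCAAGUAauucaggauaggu
miR-22-3p: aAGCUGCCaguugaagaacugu
miR-26a-5p and miR-26b-5p were the only 2 of 1679 mature sequences in the RefSeq table with the seed UCAAGUA, and miR-22-3p was the only 1 with its seed. Counted from 1 at the 5′ end, miR-26b-5p differs from miR-26a-5p by C11U and C21U, and it is 1 base shorter, 21 against 22 bases. The paralogs are therefore identical over their first 10 bases. The sources used here do not say how reads that end early or carry errors were assigned. The share of G and C bases was 40.9% in miR-26a-5p, 33.3% in miR-26b-5p and 45.5% in miR-22-3p. Neither GGAG nor CCCU, motifs that have been reported in miRNAs of small vesicles, was found in any of the 3 when read on the mature strand. Of the 1679 mature sequences, 14.2% held GGAG and 11.4% held CCCU.

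The hairpins that give rise to the members are shown because both arms of each were rows of the count table. Both mature arms are in capitals, and the first arm is the 5p arm.
Mir26a-1: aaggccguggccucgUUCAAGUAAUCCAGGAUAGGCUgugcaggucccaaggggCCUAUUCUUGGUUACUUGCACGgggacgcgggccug
Mir26a-2: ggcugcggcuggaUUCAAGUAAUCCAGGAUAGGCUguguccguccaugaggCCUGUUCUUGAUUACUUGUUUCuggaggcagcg
Mir26b: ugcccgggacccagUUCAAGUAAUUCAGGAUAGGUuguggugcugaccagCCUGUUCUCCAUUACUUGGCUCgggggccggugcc
Mir22: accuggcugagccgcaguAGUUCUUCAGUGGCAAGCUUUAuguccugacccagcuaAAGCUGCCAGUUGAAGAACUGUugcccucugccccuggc
All 4 lie on the plus strand of GRCm38. Mir26a-1 is at chr9:119031796-119031885 in an intron of Ctdspl. Mir26a-2 is at chr10:126995530-126995613 within Ctdsp2, outside its exons apart from 1 base at the hairpin's edge. Mir26b is at chr1:74394310-74394394 in an intron of Ctdsp1. Mir22 is at chr11:75463716-75463810 and lies whole within an exon of the noncoding gene Mir22hg. An exon annotated to the protein-coding gene Tlcd2 overlaps it as well. Mir26a-1 and Mir26a-2 give the same 5p arm, so the counts of miR-26a-5p cannot be divided between these loci. No other annotated transcript (GENCODE M21) held a whole mature member on either strand.

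The depth of the libraries set how finely each member could be measured. Totals ran from 47441 counts in lEVs replicate 1 to 92502 in the other lEVs libraries, and from 75486 to 114331 in sEVs. Replicate 1 of the lEVs stood apart: the chi-square of its counts over the degrees of freedom was 20.1 and 15.7 against lEVs replicates 2 and 3, which gave 2.06 against each other, while pairs of sEVs libraries gave 3.13 to 6.32. Values of the members without it are given beside their results. Among marker miRNAs of cells that bone vesicles could come from, those of mesenchymal cells (5 of 5 above 0) took 11.2% to 12.7% of the counts in lEVs and 12.1% to 13.8% in sEVs, and those of myeloid cells (4 of 4) 4.15% to 5.67% and 4.39% to 4.83%. The endothelial pair took 6.52% to 7.80% in lEVs and 8.24% to 8.60% in sEVs, and the 3 cartilage miRNAs 1.42% to 2.04% and 1.11% to 1.19%. Both summed shares did not overlap between fractions, as was the case for the CPM of 44.1% of all tested miRNAs. In edgeR, 0 miRNAs of either set passed at an adjusted p under 0.05. The cartilage miRNAs went both ways, with log2 fold changes of sEVs over lEVs of -0.42 (miR-140-3p), -0.81 (miR-140-5p) and 0.83 (miR-455-3p). Red cell (4 of 4 above 0), lymphocyte (3 of 3) and skeletal muscle (3 of 3) miRNAs took at most 0.746%, 0.490% and 2.58% of any library. The part of these cells in the results below was not tested.

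The design holds a single contrast, that of small against large vesicles of bone. miR-22-3p was 2.50-fold higher in sEVs and passed the test. miR-26a-5p was 1.33-fold higher in sEVs, with no overlap between the libraries of the fractions, but just missed the threshold. miR-26b-5p was 1.23-fold higher, with overlapping libraries, and did not pass. Of the 145 miRNAs tested, 17.2% were called at an adjusted p under 0.05, 8.28% as higher in sEVs, so 1 of 3 members called stands beside a background in which such calls were not rare. The fractions did not overlap for 44.1% of the tested miRNAs, and for 22.1% all sEVs values were above, as they were for 2 of the 3 members.

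miR-26a-5p was among the most abundant miRNAs of bone vesicles, ranking 12 to 14 in each of the 6 libraries. On the CPM scale, in which counts are brought to a common library total, and with TMM factors, which correct for composition, it stood at 17751, 16577 and 16231 CPM in lEVs replicates 1, 2 and 3. In sEVs it stood at 20536, 22498 and 23977 CPM. All 3 sEVs values lay above all 3 lEVs values, with means of 22337 ± 1726 against 16853 ± 797 CPM (n = 3 each, SD). The log2 fold change of sEVs over lEVs was 0.41 (SE 0.12, adjusted p = 0.0537 by the quasi-likelihood test of edgeR, with Benjamini-Hochberg adjustment over all tested miRNAs). Its 95% interval, not adjusted for the number of miRNAs, ran from 1.09-fold to 1.61-fold. It ranked 27 of 145 by p-value, beside 25 calls. Without lEVs replicate 1 it passed (log2 fold change 0.44; edgeR adjusted p = 0.00207), in a fit that called 19.2% of its miRNAs as higher in sEVs. DESeq2 called it as well (adjusted p = 0.00606), beside 7.56% of its tested miRNAs called as higher in sEVs.

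The standing of lEVs replicate 1 for miR-26a-5p turned with the scaling. As a share of all counts, miR-26a-5p took 1.51% of that library (715 counts, exact 95% binomial interval 1.40% to 1.62%), the lowest of the 6. It took 1.94% and 1.81% of lEVs replicates 2 and 3 and 1.96%, 2.13% and 2.32% of sEVs replicates 1, 2 and 3. The fractions again did not overlap, although sEVs replicate 1, with an interval of 1.86% to 2.06%, and lEVs replicate 2, with 1.85% to 2.03%, could not be separated at this depth. These intervals cover counting error only. With library totals in place of TMM factors the log2 fold change was 0.29 (edgeR adjusted p = 0.148), while the median over all tested miRNAs moved from -0.04 to -0.19. Relative to that median, miR-26a-5p was higher by 0.45 with TMM factors and by 0.47 with library totals.

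miR-26b-5p, the paralog with the same seed, ranked 16 to 17 in the sEVs libraries and 21 to 26 in the lEVs libraries. Its values were 7398, 9723 and 9765 CPM in lEVs replicates 1, 2 and 3 and 9651, 11217 and 12268 CPM in sEVs replicates 1, 2 and 3. The lowest sEVs library thus lay below the highest lEVs libraries, and lEVs replicate 1 was lowest of all. The sEVs mean was 11045 ± 1317 CPM, against 8962 ± 1355 CPM for lEVs (n = 3 each, SD; log2 fold change 0.30 with an SE of 0.16, adjusted p by edgeR = 0.196). The 95% interval of the fold change ran from 0.952 to 1.59, so these libraries leave room for no difference and for a difference as large as that of miR-26a-5p. Without lEVs replicate 1 the log2 fold change was 0.18 (edgeR adjusted p = 0.258). As shares of all counts, miR-26b-5p took 0.628%, 1.14% and 1.09% of lEVs replicates 1, 2 and 3 and 0.922%, 1.06% and 1.19% of sEVs replicates 1, 2 and 3.

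miR-22-3p was far less abundant, ranking 59 to 60 in the sEVs libraries and 80 to 95 in the lEVs libraries. It had 11, 54 and 38 counts in lEVs replicates 1, 2 and 3 and 77, 92 and 113 counts in sEVs replicates 1, 2 and 3. Its CPM in the same order were 273, 498 and 394 for lEVs, against 1068, 977 and 1019 for sEVs. The lowest sEVs value was well above the highest lEVs value, and the sEVs libraries lay close together, with means of 1021 ± 45.3 against 389 ± 113 CPM (n = 3 each, SD). The log2 fold change was 1.32 (SE 0.20; edgeR adjusted p = 0.00268), with a 95% interval of 1.80-fold to 3.46-fold. It had the 12th smallest p-value and the 7th largest log2 fold change of the 145 miRNAs. With lEVs replicate 1 left out the log2 fold change was 1.17 (edgeR adjusted p = 6.57e-05).

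The spread of miR-22-3p between libraries was larger in the lEVs. The standard deviation was 29.0% of the mean in lEVs and 4.43% in sEVs. Both values include counting error, which weighs more at the lower counts of the lEVs, so they do not compare the fractions alone. In lEVs replicate 1 its 11 counts were 0.0232% of the library (exact 95% binomial interval 0.0116% to 0.0415%), below the interval of lEVs replicate 2, 0.0439% to 0.0762%. The 3 sEVs shares, 0.102%, 0.0926% and 0.0988%, lay within each other's intervals. The highest lEVs share was 0.0584%, and the upper bound of its interval just passed the lower bound of sEVs replicate 2, 0.0747%.

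**Figure D1:**
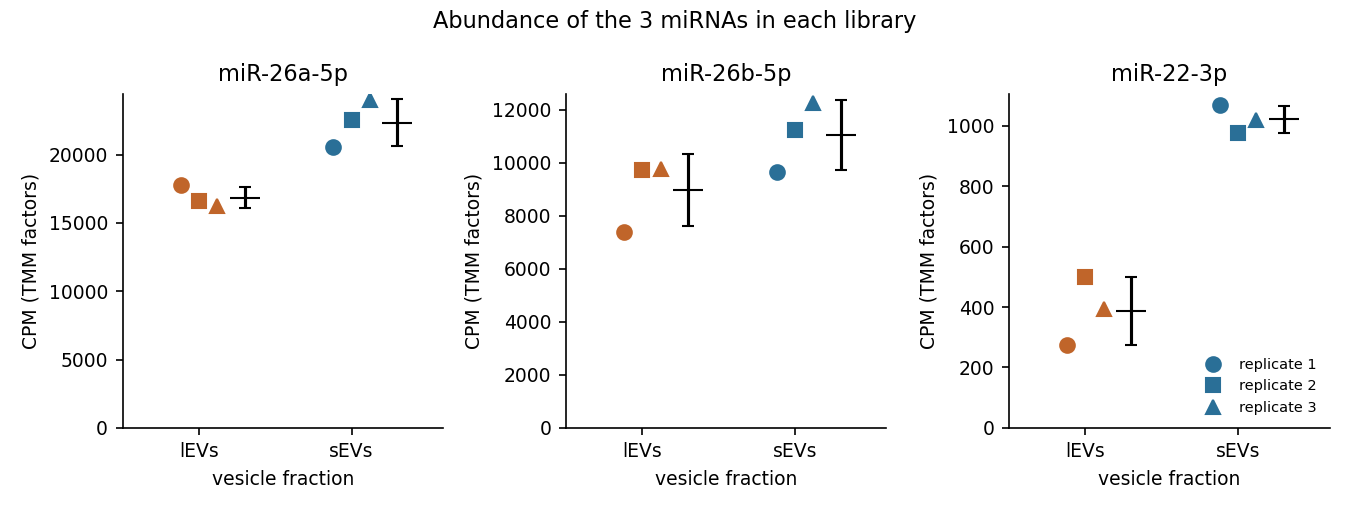
CPM with TMM factors (vertical axes, from 0, a scale of its own in each panel) of miR-26a-5p, miR-26b-5p and miR-22-3p in the 3 lEVs and 3 sEVs libraries; symbols mark replicates, and the black bars are the mean ± SD over 3 libraries. The fractions do not overlap for miR-26a-5p (16231 to 17751 against 20536 to 23977 CPM) and miR-22-3p (273 to 498 against 977 to 1068 CPM), and overlap for miR-26b-5p.

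Among all tested miRNAs, the members of the miR-26 family held places near the top of the abundance range and miR-22-3p one near its middle, at ranks 13, 19 and 68 of 145 by mean CPM. By log2 fold change they ranked 32, 44 and 7 from the top. Over the 6 libraries the members had 10333 counts (miR-26a-5p), 5405 counts (miR-26b-5p) and 385 counts (miR-22-3p), so the largest fold difference of the 3 rested on the fewest counts. By the difference in CPM, which is a relative measure, miR-22-3p, first by fold, came last. Between the fraction means, miR-26a-5p differed by 5484 CPM, miR-26b-5p by 2083 CPM and miR-22-3p by 633 CPM.

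**Figure D2:**
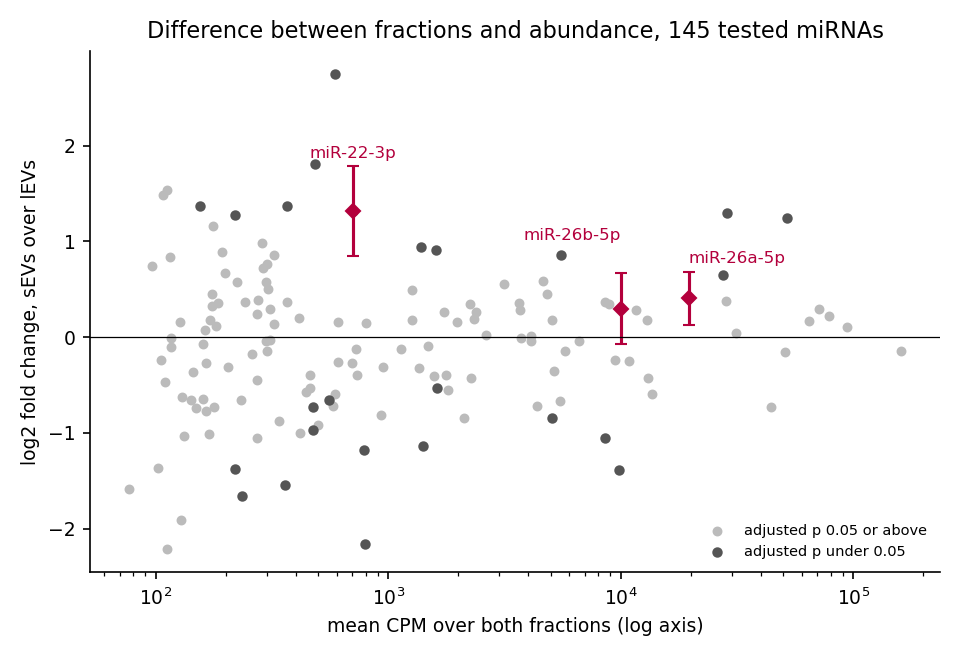
Log2 fold change of sEVs over lEVs (vertical axis) against mean CPM over both fractions (horizontal log axis) for the 145 tested miRNAs, dark where the edgeR adjusted p was under 0.05; red diamonds are the members with their unadjusted 95% intervals. miR-22-3p sits at 1.32 among miRNAs of middle abundance, and miR-26a-5p (0.41) and miR-26b-5p (0.30) sit close together at high abundance.

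Together the 3 members took 2.16%, 3.14% and 2.94% of the counts of lEVs replicates 1, 2 and 3 and 2.99%, 3.29% and 3.61% of those of sEVs replicates 1, 2 and 3. The fractions overlapped, since lEVs replicate 2 lay above sEVs replicate 1. The sEVs mean was 3.30% ± 0.314, against 2.74% ± 0.518 for lEVs (n = 3 each, SD; two-sided exact permutation p = 0.2, where 3 against 3 libraries give 0.1 at the lowest). Without lEVs replicate 1 the difference fell from 0.551 to 0.258 percentage points (two-sided exact permutation p = 0.4).

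Whether the members differed from each other in their response to fraction was tested on ratios within a library, which need no scaling. The log2 ratio of miR-22-3p to miR-26a-5p was -6.02, -5.06 and -5.36 in lEVs replicates 1, 2 and 3 and -4.27, -4.52 and -4.56 in sEVs replicates 1, 2 and 3. All sEVs ratios were higher, by a mean of 1.03 on the log2 scale, or 2.04-fold (two-sided exact permutation p = 0.1, the lowest that can be reached; 0.15 after Benjamini-Hochberg adjustment over the 3 pairs). This difference was 0.76 without lEVs replicate 1.

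The log2 ratio of miR-22-3p to miR-26b-5p was -4.76, -4.29 and -4.63 in lEVs, against -3.18, -3.52 and -3.59 in sEVs, in the order of replicates 1, 2 and 3. These ratios did not overlap either, with a mean difference of 1.13, and of 1.03 without lEVs replicate 1 (two-sided exact permutation p = 0.1; 0.15 adjusted over the 3 pairs). With 3 libraries in each fraction neither ratio could pass a threshold of 0.05.

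For the paralogs, the log2 ratio of miR-26b-5p to miR-26a-5p was -1.26, -0.77 and -0.73 in lEVs, against -1.09, -1.004 and -0.97 in sEVs. The sEVs ratios fell between those of lEVs replicate 1 and those of the other lEVs libraries. The mean difference was -0.10 (two-sided exact permutation p = 0.6; 0.6 adjusted over the 3 pairs). Without lEVs replicate 1 it was -0.27, with both remaining lEVs ratios above all sEVs ratios (two-sided exact permutation p = 0.2, the smallest that 3 against 2 libraries gave).

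**Figure D3:**
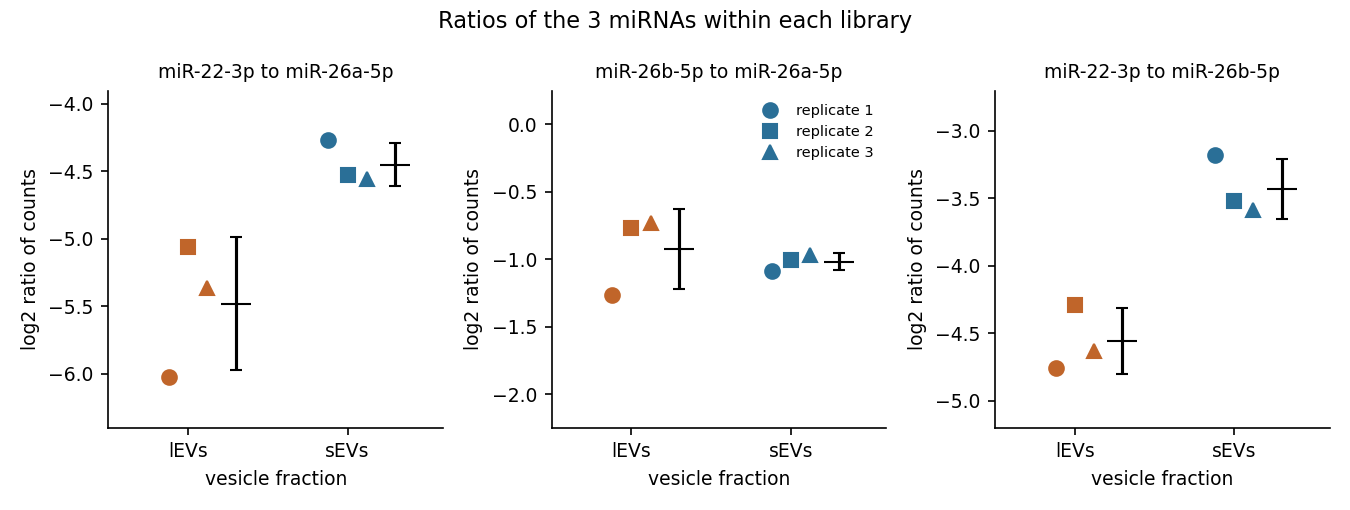
Log2 ratio of the counts of each pair of members within a library (vertical axes, each spanning 2.5 log2 units) in lEVs and sEVs; symbols mark replicates, and black bars are the mean ± SD over 3 libraries. Both ratios with miR-22-3p are higher in every sEVs library, whereas the sEVs ratios of miR-26b-5p to miR-26a-5p, -1.09 to -0.97, lie inside the lEVs range of -1.26 to -0.73.

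Counted as parts of the family, miR-26b-5p made up 32.0%, 33.3% and 33.8% of the miR-26 counts in sEVs replicates 1, 2 and 3. In lEVs its part was 29.4%, 37.0% and 37.6%. Most miR-26 counts of every library were thus assigned to miR-26a-5p. The intervals of the 3 sEVs libraries overlapped, from 30.0% to 34.0% of 2177 counts in replicate 1 to 32.4% to 35.3% of 4018 counts in replicate 3, and their mean was 33.0% ± 0.961 (SD, n = 3). The lEVs libraries differed beyond their counting error: the interval of replicate 1, 26.6% to 32.3% of 1013 counts, lay below those of replicate 2, 35.2% to 38.8%, and replicate 3, 35.7% to 39.5%.

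**Figure D4:**
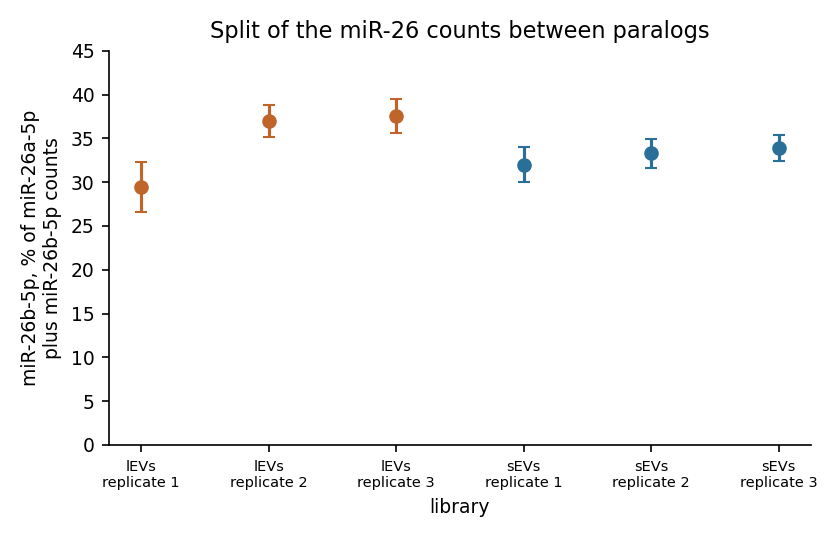
Share of miR-26b-5p in the counts of miR-26a-5p plus miR-26b-5p (vertical axis, percent) in each of the 6 libraries, with exact 95% binomial intervals, which cover counting error only. The 3 sEVs libraries sit at 32.0% to 33.8%, lEVs replicate 1 below them at 29.4%, and lEVs replicates 2 and 3 above them at 37.0% and 37.6%.

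The opposite arms of the hairpins shown above were near the limit of the table. miR-26a-2-3p had 3 counts in lEVs replicate 3, 5 in sEVs replicate 2 and 2 in sEVs replicate 3, 10 in all against 10333 of miR-26a-5p. miR-26a-1-3p, miR-26b-3p and miR-22-5p were listed at 0 in all 6 libraries. The table held 0 values of 1, so single counts may have been written as 0, and no bound was drawn from these zeros. In both fractions the members were thus measured almost wholly as the 5p arm of miR-26 and the 3p arm of miR-22.

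The tested miRNAs most correlated with each member across the 6 libraries were not the same. By Pearson's r of log2(CPM + 10), the miRNAs most like miR-26a-5p were miR-434-3p (r = 0.98, on 4 to 31 counts a library), miR-10b-5p (0.95) and miR-455-3p (0.95, on 4 to 18 counts a library). For miR-26b-5p they were the endothelial miR-126a-5p (0.98), miR-195a-5p (0.95) and miR-21a-5p (0.95). Closest to miR-22-3p were the joined row miR-23a-3p/23b-3p (0.98), let-7g-5p (0.96) and the lymphocyte miRNA miR-150-5p (0.96). Without lEVs replicate 1, r stayed between 0.93 and 0.98 for the miRNAs named for miR-26a-5p and miR-22-3p. For those named for miR-26b-5p it was 0.95, 0.85 and 0.86. These values describe 6 points that share library, depth and scaling, and they include the difference between fractions. They were picked as the highest over all tested miRNAs, so high values follow in part from the picking. Between the paralogs miR-26a-5p and miR-26b-5p, r was 0.66, and 0.82 without lEVs replicate 1. Between miR-22-3p and miR-26a-5p it was 0.83, and 0.93 without that library. Between miR-22-3p and miR-26b-5p it was 0.80, and 0.56 without that library.

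Other miRNAs with reported roles in osteoblasts moved in both directions. Of 11 further miRNAs reported to favour osteoblast differentiation, 9 were above 0 in some library and 8 were tested. Of these, 0 rose and 2 fell in sEVs, miR-29a-3p and miR-15b-5p, and 6 did not pass in edgeR. Over all 145 tested miRNAs, 8.28% rose and 8.97% fell in sEVs. DESeq2 also gave 0 and 2, beside 7.56% and 5.33% of its tested miRNAs. At an unadjusted p under 0.05 edgeR gave 0 and 3, beside 19.3% and 18.6% of all. The median log2 fold change of the list was -0.52, beside -0.04 over all tested miRNAs. This list, like that of Runx2 repressors below, was chosen with earlier results of these data known. Its counts and median are therefore a description and no independent test. miR-29a-3p, which represses collagen messenger RNAs, fell from 11554 ± 2409 CPM in the lEVs to 5530 ± 662 CPM in the sEVs (n = 3 each, SD; log2 fold change -1.06 with an SE of 0.18, adjusted p by edgeR = 0.00447; log2 fold change -0.88 without lEVs replicate 1). miR-15b-5p fell from 539 ± 87.2 to 182 ± 13.8 CPM (log2 fold change -1.55 with an SE of 0.22, adjusted p by edgeR = 0.00191; -1.57 without lEVs replicate 1).

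The 6 members of that list that did not pass were split, 3 with log2 fold changes above 0 and 3 below. miR-335-5p had 1.16, on 0 to 39 counts a library, and 0.85 without lEVs replicate 1. miR-20a-5p had 0.29, with 0.07 when that library was left out and a turned sign, -0.0095, when sEVs replicate 3 was. miR-21a-5p also had 0.29, and 0.07 without lEVs replicate 1. The values of miR-20a-5p and miR-21a-5p thus leaned on single libraries. That of miR-335-5p ran from 0.82 to 1.73 with 1 library left out in turn. miR-196a-5p had -0.72, and -0.19 without lEVs replicate 1. miR-218-5p had -0.32, and -0.11 without sEVs replicate 1. miR-29b-3p, of the same seed family as miR-29a-3p, had -0.92, and -0.60 without sEVs replicate 1. All 3 lEVs values of miR-29b-3p lay above the sEVs values, and the adjusted p was 0.0783 in edgeR and 0.0127 without lEVs replicate 1. miR-2861 and miR-3960 were listed at 0 in all libraries. With lEVs replicate 1 left out, 0 of the list rose and 3 fell in sEVs, where 19.2% and 15.2% of all tested miRNAs did. Without the filter on low counts, 1 rose and 5 fell, where 6.12% and 10.1% of all did.

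Of 11 miRNAs reported to repress Runx2, the master transcription factor of osteoblasts, 10 were above 0 in some library and 5 were tested. Here 1 rose in sEVs, the joined row miR-23a-3p/23b-3p, 0 fell and 4 did not pass in edgeR, with a median log2 fold change of 0.16. All tested miRNAs gave 8.28% and 8.97%. DESeq2 also gave 1 and 0, beside 7.56% and 5.33% of all, and at an unadjusted p under 0.05 edgeR gave 1 and 1, beside 19.3% and 18.6%. miR-23a-3p/23b-3p rose from 3902 ± 372 CPM in the lEVs to 7118 ± 445 CPM in the sEVs (n = 3 each, SD; log2 fold change 0.86 with an SE of 0.13, adjusted p by edgeR = 0.00263; 0.78 without lEVs replicate 1). In edgeR the muscle row miR-133a-3p/133b-3p did not pass (adjusted p = 0.0555), with a log2 fold change of -0.85. With TMM factors all its lEVs values were higher, but narrowly: lEVs replicate 1 stood at 1663 CPM and sEVs replicate 3 at 1660 CPM. The row passed without lEVs replicate 1 (edgeR adjusted p = 2.37e-05), whereas leaving out lEVs replicate 2 gave -0.60 (adjusted p = 0.0991). miR-338-3p had 0.89, on 2 to 34 counts a library, and 0.67 without lEVs replicate 1. miR-30c-5p had 0.16, a direction that turned with library totals and in a thinned draw, and 0.0059 without lEVs replicate 1. With that library left out, 1 of this list rose and 1 fell, beside 19.2% and 15.2% of all. The fall of 1 was also counted with upper quartile factors, the replicate block and no filter on low counts, where 12.4%, 8.97% and 10.1% of all fell. miR-218-5p belongs to both lists.

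**Figure D5:**
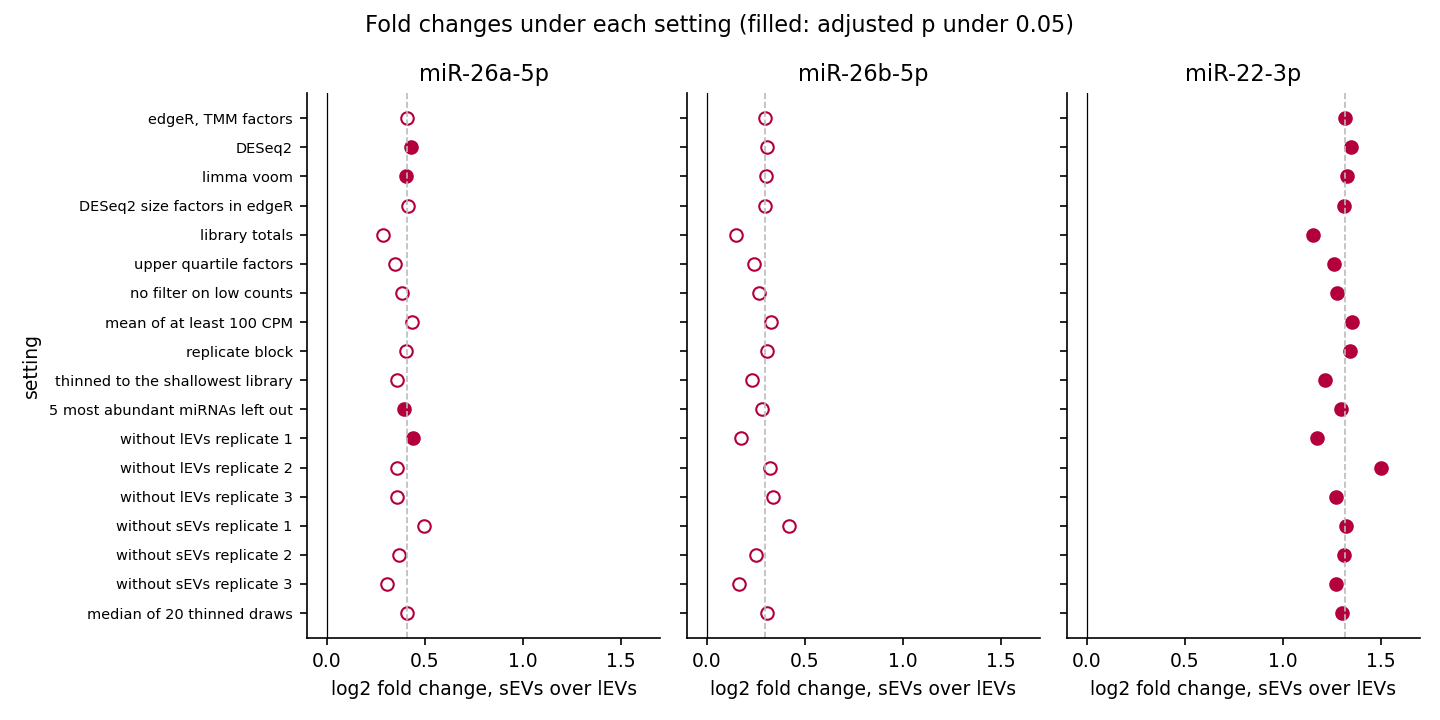
Log2 fold change of sEVs over lEVs (horizontal axis) of each member under each setting (vertical axis), filled where the adjusted p was under 0.05; the dashed line marks the edgeR value with TMM factors. miR-22-3p is filled in every row (1.16 to 1.50), miR-26b-5p in none (0.15 to 0.42), and miR-26a-5p (0.29 to 0.49) in 4 of the 17 rows below the first.

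The call of miR-22-3p thus held under all 17 alternatives tried, with adjusted p-values from 5.90e-06 to 0.0251. That of miR-26a-5p was made under 4 of 17, with adjusted p-values from 0.00207 to 0.192, and each of the 17 gave a higher value in sEVs. For miR-26b-5p the adjusted p-values ran from 0.138 to 0.658. All 17 alternatives reuse the same 6 libraries, and the median of 20 thinned draws among them was added after seeing the data.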

How the data were processed

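The authors deposited whole-number counts per mature miRNA for 3 lEVs and 3 sEVs libraries, not normalized. They came from QIAseq miRNA libraries read on a MiSeq as single reads of 75 bases, per the labels' protocols. The submitters' processing notes name the build GRCm38 with DESeq2 1.38.2 and R 4.2.2. The sources used here do not give the aligner, the counting rule or the use of molecular identifiers. Columns and groups were assigned by the labels.

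Of 327 miRNAs above 0, 145 passed filterByExpr (at least 10 counts, total of at least 15) and entered the quasi-likelihood test of edgeR 4.0.16 (R 4.3.3, TMM factors), with Benjamini-Hochberg adjustment over all 145. CPM refer to the counts of tested miRNAs, at least 99.4% of each library. Standard errors are the absolute log2 fold change over the square root of F. The code recovered known changes in simulated data, which were larger than those of any member and held no outlying library. Recovery of smaller changes was not tested. Alternatives were DESeq2 1.42.0, voom in limma 3.58.1, other scalings and filters, a replicate block, thinning and leaving out libraries; 20 repeated thinnings were added after seeing the data. The text names the 3 members, their other arms, rows sharing a seed, the 3 tested miRNAs most correlated with each member, and, from each osteoblast list, at most 6 tested miRNAs in order of abundance. Also named, after their values were seen, were miR-20a-5p, miR-335-5p, miR-2861, miR-3960 and single miRNAs of the cell marker sets. The members and lists were chosen with earlier results of these data known. Sequences are from RefSeq (GRCm38.p6) and host genes from GENCODE M21.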

Additional observations from a re-analysis of the deposited data

How the results depend on the processing

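miR-26a-5p, below the call in the fit reported, passed with DESeq2 (log2 fold change 0.43), limma voom (0.40), without the 5 most abundant miRNAs (0.39; adjusted p = 0.0379) and without lEVs replicate 1; leaving out 1 library in turn gave 0.30 to 0.49. In 1 draw thinned to the shallowest library its adjusted p was 0.0933, and 8 of 20 further draws called it (0.0289 to 0.0682). Leave-one-out values ran from 0.17 to 0.42 for miR-26b-5p and from 1.17 to 1.50 for miR-22-3p. The number of calls, 25, was 53 without the filter on low counts and 16 to 52 with 1 library left out, lowest without lEVs replicate 3 and highest without lEVs replicate 1; the split of 12 higher in sEVs and 13 in lEVs became 11 and 24 with library totals. miR-30c-5p turned to -0.0050 with library totals and -0.10 in the thinned draw, and miR-20a-5p to -0.0095 without sEVs replicate 3 (leave-one-out values -0.0095 to 0.48). The causes were not tested. Same-numbered libraries were not treated as pairs in the fit reported, since the labels do not say whether they are. Correlations of their deviations from the fraction means were -0.07, 0.07 and 0.37, beside -0.31 to 0.14 for differently numbered libraries. Deviations from means of 3 libraries cannot decide whether they were pairs. With the replicate block the log2 fold changes of miR-26a-5p, miR-26b-5p and miR-22-3p were 0.41, 0.30 and 1.35, and 26 miRNAs were called. Depth limits miR-22-3p most, at 11 counts in lEVs replicate 1.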
